A study of Mus musculus with 10 samples.

Results

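TRIM genes encode the tripartite motif proteins, a family built on a RING finger, B-box zinc fingers and a coiled coil, followed by a C-terminal region that differs between members. The RING makes most of them ubiquitin ligases, while a few, such as Trim14, Trim16, Trim29, Trim44 and Trim66, lack it. In embryonic stem cells members of the family are known for silencing of retroelements with KRAB zinc finger proteins (Trim28), for repression of messenger RNAs downstream of let-7 (Trim71) and for control of Myc (Trim6), and in differentiated tissues for roles in neurons and in antiviral signalling.

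The genes described are those whose symbol in the platform annotation is Trim followed by a number alone, each represented by its probe set of highest mean. There were 52 such genes among 18194 genes tested, measured by 100 probe sets, and 26 of the 52 had more than 1 probe set. Paralogues with a letter in their symbol (Trim43a, Trim30a and others) and family members under another name (Pml, Mid1) fall outside this rule. The data are 10 Affymetrix arrays. The cells were NG4, a line of mouse embryonic stem cells, transfected with siRNA at plating, held in retinoic acid and collected 48 h later. Each group has 2 arrays: siNonTarget (an siRNA with no target, the control), siSox17, siFbxw7, siSocs3 and siRnf31, and all of them, controls included, received retinoic acid and transfection. Values are log2 of the deposited RMA intensities, so a difference of 1 is 2-fold; changes are the siRNA group minus siNonTarget with the standard error (SE) of a limma model over all genes, n = 2 arrays per group throughout, and called where the Benjamini-Hochberg adjusted p was under 0.05.

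The array medians lay between 46.39 and 47.95 in intensity, and with 2 arrays per group their number limits the precision. Whether a group's replicates were grown as different cultures is not given. The p-values therefore measure array-to-array spread alone, which may be technical. No targeted transcript passed in its own group (limma adjusted p of 0.281 to 0.988). Socs3 at 0.44 and Sox17 at 0.03 were not below 0, while Fbxw7 at −0.25 and Rnf31 at −0.40 were below 0 without a call. The directions therefore rest on the labels. Actin probe sets at the 3′ and 5′ ends of the transcript, a measure of RNA integrity, differed by 0.50 on siNonTarget replicate 1 and 0.60 on siFbxw7 replicate 1, against 0.21 to 0.29 on the other 8 arrays. All 8 embryonic stem cell markers examined were measured, with a lowest intensity of 405 on any array. Their summed intensity was 14192 and 15771 on the control arrays, 27358 and 29957 on the siSocs3 arrays and between 14476 and 22048 on the other 6. In siSocs3, 4 of the 8 were called higher. Estimates were above 0 for 6 and below 0 for 2, the lowest being −0.46 for Lin28a. The summed intensity of 5 neural markers was lower in siSocs3, at 626 and 794 against 1329 and 1779 on the control arrays. Of the 5, 3 were called lower and all 5 estimates were below 0. The sum of 8 fibroblast markers was 1211 and 1526 on the control arrays and 614 and 763 on the siSocs3 arrays. Of the 8, 2 were called lower, but 5 had estimates above 0 and 3 below, with a median of 0.00. The fall of the sum is therefore not shared by most of these markers. Of all genes, 3.59% were called higher and 5.66% lower in siSocs3. Over all arrays the fibroblast sum ran from 614 to 1699, that of extraembryonic endoderm markers from 820 to 2129 and that of the 2 blood markers measured from 69.0 to 169. The endoderm sum was 1357 and 2129 in siFbxw7 against 1063 and 1118 on the control arrays. All 5 endoderm estimates in siFbxw7 were above 0 and 0 were called, where 0% of all genes were. In bulk RNA, fewer cells of a type and less RNA per cell cannot be told apart, and the part of these marker shifts in the TRIM results below was not tested.

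Across the family, the arrays labelled siSocs3 held all of the calls against the control. Trim2, Trim37 and Trim65 fell and Trim24 rose, 4 of 52 genes or 7.69%, where 9.26% of all genes tested were called. Of all genes 1684 were called, and both counts moved when arrays were left out. TRIM calls were 0 without siNonTarget replicate 1 (313 of all genes), siSocs3 replicate 1 (63) or siSocs3 replicate 2 (638). They were 1 without siNonTarget replicate 2 (1116) or both arrays of high actin difference (858), and 2 without either siSox17 array (1133). Without either siFbxw7 array they were 7 (2074 of all genes), with Trim6, Trim14 and Trim56 added. By direction the background was 3.59% higher and 5.66% lower. The share of TRIM genes called was thus close to that of genes at large, and their median change of 0.01 was near the 0.03 of all genes. The arrays of the 2 groups did not overlap for 28 of the 52 genes, 17 above and 11 below the controls, against 57.2% of all genes (30.6% of all genes above the controls). In siSox17, siFbxw7 and siRnf31 no TRIM gene was called, where 0.0055%, 0% and 0% of all genes were. At an unadjusted p under 0.05 there were 11 TRIM genes in siSocs3, 8 in siSox17, 2 in siFbxw7 and 5 in siRnf31, against 26.2%, 17.3%, 6.45% and 5.87% of all genes. Arrays did not overlap for 28 TRIM genes in siSox17, 16 in siFbxw7 and 16 in siRnf31, against 48.2%, 33% and 35.2% of all genes. These 4 comparisons share the control arrays.

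**Figure D1:**
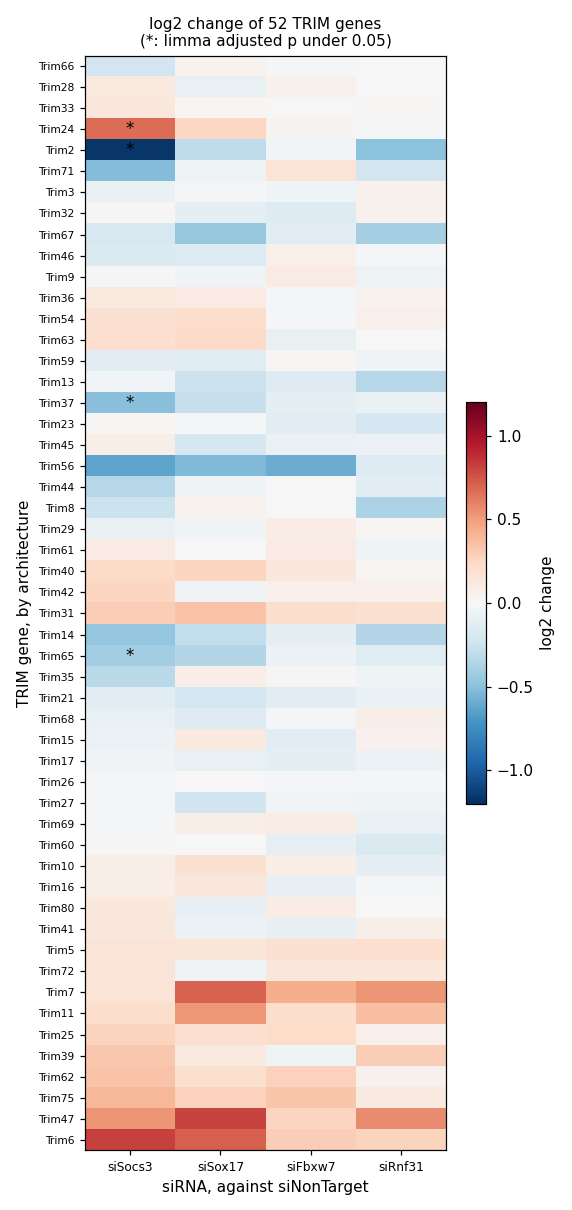
Colour gives the log2 change of each of the 52 TRIM genes (rows, grouped by protein architecture) in each siRNA group against siNonTarget (columns), and asterisks mark limma adjusted p under 0.05. The 4 asterisks, on Trim24, Trim2, Trim37 and Trim65, all lie in the siSocs3 column, and pale rows such as Trim26 changed by no more than 0.03 in size in every comparison.

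Of the 52 genes, 41 have at least 1 promoter window in the RefSeq table of GRCm38.p6, 54 windows in all. Shown are windows of Trim24, the called rise, and Trim2, the largest called fall. Each is the 250 bases before the start site, 5′ to 3′ on the gene's strand. Capitals mark GGGCGG on either strand (the core of the SP factor site), and overlapping matches run together.
Trim24, chr6:37870561-37870810, plus strand, the farther upstream of its 2 windows: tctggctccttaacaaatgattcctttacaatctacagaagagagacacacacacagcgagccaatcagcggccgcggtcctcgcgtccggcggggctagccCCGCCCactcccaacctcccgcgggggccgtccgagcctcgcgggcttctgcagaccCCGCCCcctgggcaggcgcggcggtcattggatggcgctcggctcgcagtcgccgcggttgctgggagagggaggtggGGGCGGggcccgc
Trim2, chr3:84304776-84305025, minus strand, the farthest upstream of its 5 windows: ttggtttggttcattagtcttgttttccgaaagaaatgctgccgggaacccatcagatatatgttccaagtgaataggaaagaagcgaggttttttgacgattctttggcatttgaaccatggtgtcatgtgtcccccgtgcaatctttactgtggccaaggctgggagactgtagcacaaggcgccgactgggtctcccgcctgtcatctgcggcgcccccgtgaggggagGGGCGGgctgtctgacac
The Trim24 window is 69.6% G and C with 27 CG pairs and holds the motif at 3 places. That of Trim2 is 53.2% G and C with 12 CG pairs and 1 match. GGGCGG was found in 22 of the 54 TRIM windows (40.7%) and in 32.7% of all 32851 windows of that length. The other motifs searched, on both strands, were TTCNNNGAA (STAT factors; 5 TRIM windows, 9.26%, against 7.02% of all), the interferon-stimulated response element (2 windows, 3.7%, against 2.98%), AGGTCA (nuclear receptors; 11 windows, 20.4%, against 14.0%) and ATGCAAAT (POU factors; 1 window, 1.85%, against 1.6%). Trim15, Trim31, Trim45 and Trim46 hold the STAT letters, and Trim5 and Trim26 those of the response element. AGGTCA is in windows of Trim13, Trim15, Trim21, Trim23, Trim69, Trim72 and Trim75. It is also in windows of Trim2 and Trim24 that are not printed here, at 3 places in that of Trim24. Windows of a gene can overlap, as those of Trim15 do, so the shares are of windows and not of genes. A match describes letters only.

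The NHL members carry a C-terminal propeller that binds RNA or protein. Trim2, a ligase known from neurons, where it acts on neurofilament light chain, gave the largest change of any TRIM gene. It read 8.93 and 8.45 on the control arrays, 8.22 and 8.55 in siSox17, 8.76 and 8.55 in siFbxw7, 8.23 and 8.17 in siRnf31 and 7.67 and 7.39 in siSocs3. The siSocs3 arrays were below the other 8 arrays. Against the control Trim2 fell by 1.16 ± 0.18 (limma adjusted p = 0.00934), with a 95% interval of −1.58 to −0.75. The direct contrasts gave −1.13 ± 0.18 against siFbxw7 (limma adjusted p = 0.0138), −0.85 ± 0.18 against siSox17 (0.0461) and −0.67 ± 0.18 against siRnf31 (0.106). The last did not pass. The direct contrasts share the siSocs3 arrays with each other and with the comparison above. Their changes do not use the control arrays, but their SE and p-values do, through the spread estimated over all groups. In these contrasts Trim2 was the 1 TRIM gene called of 52 against siFbxw7 and against siSox17, and 0 were called against siRnf31. Of all genes 3.51%, 2.61% and 2.13% were called in that order. Against siRnf31, 7 of the 52 TRIM genes had an unadjusted limma p under 0.05, as did 3072 of all 18194 genes. The call against siSox17 ended without either array of siSox17, siFbxw7, siSocs3 or siRnf31, with adjusted p of 0.0517 to 0.216, and that against siFbxw7 ended without siFbxw7 replicate 1 (0.102) or either siSocs3 array (0.0722 and 0.0813). Lower calls alone were 1.41% of all genes against siFbxw7 and 0.967% against siSox17. For siRnf31 against the control Trim2 was −0.49 ± 0.18 (limma adjusted p = 0.778), with both siRnf31 arrays below both controls. The sum of neural markers was likewise lowest on the siSocs3 arrays, at 626 and 794, and its part in the fall of Trim2 was not tested.

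Trim2 is covered by 6 probe sets, and they did not all move alike. The 3 brightest gave −1.16 ± 0.18, −1.10 ± 0.20 and −1.03 ± 0.18 in siSocs3, each called when every probe set was tested (limma adjusted p = 0.0125, 0.0175 and 0.0169). A dimmer one gave −0.54 ± 0.16 and was not called (0.0827), and the 2 dimmest gave −0.05 ± 0.16 and 0.06 ± 0.12. The call on the brightest probe set ended without siNonTarget replicate 1 (−0.93, limma adjusted p = 0.0521), without siSocs3 replicate 1 (−1.30, 0.0645) and without siSocs3 replicate 2 (−1.03, 0.0504). It was kept when both arrays of high actin difference were dropped, but the dimmest of the 3 called probe sets lost its call (−0.82, limma adjusted p = 0.0611). Averaging all 6 gave −0.64 (limma adjusted p = 0.0193). In the direct contrasts the other 2 of the 3 brightest gave −0.59 and −0.85 against siSox17, neither called (limma adjusted p = 0.196 and 0.0576). Against siFbxw7 they gave −0.89 and −0.98, and only the second was called (limma adjusted p = 0.0535 and 0.0284). The dimmer probe sets were not called in either contrast.

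Trim71, the mouse LIN-41 that represses target messenger RNAs and is itself a let-7 target, was −0.52 ± 0.27 in siSocs3 and not called (limma adjusted p = 0.256). Its levels were 11.07 and 10.63 in siNonTarget, 10.87 and 10.71 in siSox17, 11.23 and 10.80 in siFbxw7, 10.66 and 10.01 in siSocs3 and 10.36 and 10.91 in siRnf31. The replicates of siSocs3 differed by 0.65, the largest replicate difference of any TRIM gene in that group, and the groups overlapped. Its other probe set gave −0.17 ± 0.11. Trim32, a ligase known from muscle and neural progenitors, read 8.55 and 8.73 on the controls and 8.60 and 8.70 in siSocs3, a difference of 0.01 ± 0.11. In the other groups it read 8.61 and 8.43 (siSox17), 8.47 and 8.49 (siFbxw7) and 8.65 and 8.73 (siRnf31). Trim3, a brain-enriched member, read 7.31 and 7.35 on the controls, 7.37 and 7.23 in siSox17, 7.19 and 7.38 in siFbxw7, 7.16 and 7.34 in siSocs3 and 7.35 and 7.41 in siRnf31, and its groups overlapped in all 4 comparisons. So 1 of 4 NHL members was called in siSocs3, where 9.26% of all genes were.

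**Figure D2:**
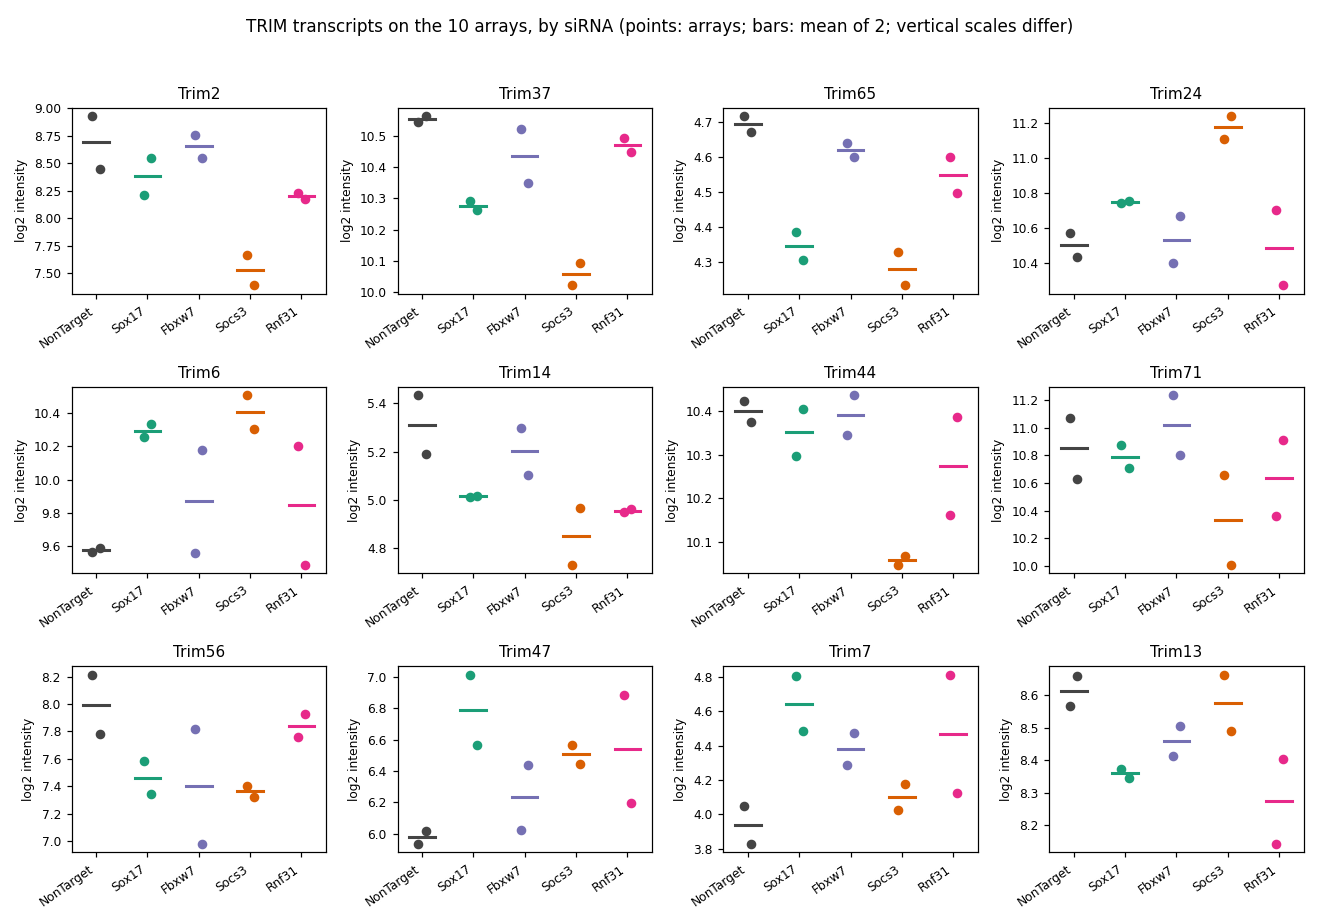
Each panel plots log2 intensity (vertical axis, scaled per gene) of 12 TRIM genes on the 10 arrays by siRNA group; points are arrays and bars the mean of 2. For Trim2, Trim37 and Trim65 the siSocs3 points are the lowest mean of the 5 groups, for Trim24 the highest, and for Trim71 and Trim6 replicate arrays of some groups lie up to 0.65 and 0.71 apart.

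The TIF1 members join the tripartite motif to a PHD finger and bromodomain that read chromatin. Trim24 (TIF1 alpha), a coregulator of nuclear receptors including the retinoic acid receptor and a ligase for p53, was the TRIM gene called higher. Its levels were 10.57 and 10.44 on the control arrays and 11.11 and 11.24 on the siSocs3 arrays, a rise of 0.67 ± 0.15 (limma adjusted p = 0.0311), with a 95% interval of 0.32 to 1.02. The siSox17 arrays read 10.74 and 10.76, siFbxw7 10.40 and 10.67 and siRnf31 10.70 and 10.27, so the siSocs3 arrays stood above the other 8. In the direct contrasts it was 0.69 ± 0.15 against siRnf31 (limma adjusted p = 0.0628), 0.64 ± 0.15 against siFbxw7 (0.0604) and 0.42 ± 0.15 against siSox17 (0.198), none past the threshold. A second probe set gave 0.44 ± 0.11 (limma adjusted p = 0.0475), a call kept only when either siFbxw7 array was the one left out (0.0562 to 0.194 in the other leave-outs), and the dimmest 0.07 ± 0.26. The adjusted p was 0.0888 without siNonTarget replicate 1, 0.103 without siNonTarget replicate 2, 0.156 and 0.135 without siSocs3 replicates 1 and 2, 0.0548 without either siSox17 array, and 0.0665 without both arrays of high actin difference, with changes of 0.60 to 0.74. Averaging the 3 probe sets of Trim24 also ended the call, at 0.39 (limma adjusted p = 0.0863).

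Trim28 (KAP1), the corepressor that KRAB zinc finger proteins recruit to retroelements, stayed within a narrow range. It read 13.17 and 13.07 in siNonTarget, 13.02 and 13.03 in siSox17, 13.20 and 13.14 in siFbxw7, 13.25 and 13.22 in siSocs3 and 13.10 and 13.12 in siRnf31. The siSocs3 difference was 0.12 ± 0.09 with a 95% interval of −0.09 to 0.32, and the other probe set gave 0.10 ± 0.19. Trim66, a testis-enriched member without a RING, read 3.69 and 3.24 on the controls and 3.20 and 3.27 in siSocs3, a difference of −0.23 ± 0.18. It was 3.40 and 3.61 in siSox17, 3.56 and 3.35 in siFbxw7 and 3.65 and 3.28 in siRnf31, overlapping the controls each time.

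Trim33 (TIF1 gamma), a regulator of SMAD4, had probe sets that disagreed. Its brightest read 9.997 and 9.999 on the controls, 10.07 and 9.98 in siSox17, 10.03 and 9.98 in siFbxw7, 10.14 and 10.12 in siSocs3 and 9.99 and 10.04 in siRnf31, with a siSocs3 difference of 0.13 ± 0.09 that was not called (limma adjusted p = 0.397). The next probe set read 8.87 and 8.50 on the controls and 8.12 and 8.02 in siSocs3, −0.62 ± 0.15 and called lower when every probe set was tested (limma adjusted p = 0.0444). That call ended without either siSocs3 array (0.193 and 0.171), without siNonTarget replicate 1 (−0.43, 0.206), without either siSox17 array (0.0762), without either siRnf31 array (0.0551) and without both arrays of high actin difference (0.143). No direction for Trim33 is drawn from these probe sets. Of all 100 TRIM probe sets, 8 were called in siSocs3, 2 higher and 6 lower, where 6.9% of all 34958 probe sets were called. None of the 8 passed without siNonTarget replicate 1 (limma adjusted p of 0.0636 to 0.206) or without either siSocs3 array.

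Trim37, a MATH-domain ligase that limits centriole assembly and is mutated in mulibrey nanism, fell by 0.50 ± 0.10 in siSocs3 (limma adjusted p = 0.0189). The 2 siSocs3 arrays read 10.02 and 10.09, below all others, with 10.55 and 10.56 in siNonTarget, 10.29 and 10.26 in siSox17, 10.52 and 10.35 in siFbxw7 and 10.49 and 10.45 in siRnf31. The siSox17 arrays came next at −0.28 ± 0.10, not called (limma adjusted p = 0.202). Direct contrasts gave −0.41 ± 0.10 against siRnf31 (limma adjusted p = 0.0702), −0.38 ± 0.10 against siFbxw7 (0.0755) and −0.22 ± 0.10 against siSox17 (0.294). All 5 probe sets of Trim37 lay below 0 in siSocs3, the other 4 between −0.43 and −0.14 and none of them called. The adjusted p was 0.0807 and 0.0601 without siNonTarget replicates 1 and 2, 0.162 and 0.064 without siSocs3 replicates 1 and 2, and 0.0547 without both arrays of high actin difference, with changes of −0.53 to −0.46. Averaging the probe sets of Trim37 ended the call too, at −0.34 (limma adjusted p = 0.0664).

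Trim23, which has an ARF GTPase domain, read 8.999 and 9.02 on the controls and 8.98 and 9.06 in siSocs3, a difference of 0.01 ± 0.10. It was 9.03 and 8.96 in siSox17, 8.87 and 8.87 in siFbxw7 and 8.92 and 8.69 in siRnf31, the last 2 pairs below both controls without a call (−0.14 ± 0.10 and −0.20 ± 0.10). Trim45, with a filamin repeat, differed by 0.07 ± 0.10 in siSocs3. Trim13 and Trim59 are anchored in membranes, Trim13 in the endoplasmic reticulum. Trim13 had the smallest unadjusted p of any TRIM gene in siRnf31 (0.0182), with 8.14 and 8.40 against 8.57 and 8.66 on the controls, a difference of −0.34 ± 0.12 that was not called (limma adjusted p = 0.778). Its other levels were 8.37 and 8.35 in siSox17, 8.41 and 8.50 in siFbxw7 and 8.66 and 8.49 in siSocs3. Trim59 read 11.33 and 11.59 in siNonTarget, 11.14 and 11.50 in siSox17, 11.45 and 11.49 in siFbxw7, 11.26 and 11.41 in siSocs3 and 11.50 and 11.34 in siRnf31, and overlapped the controls in all 4 comparisons.

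**Figure D3:**
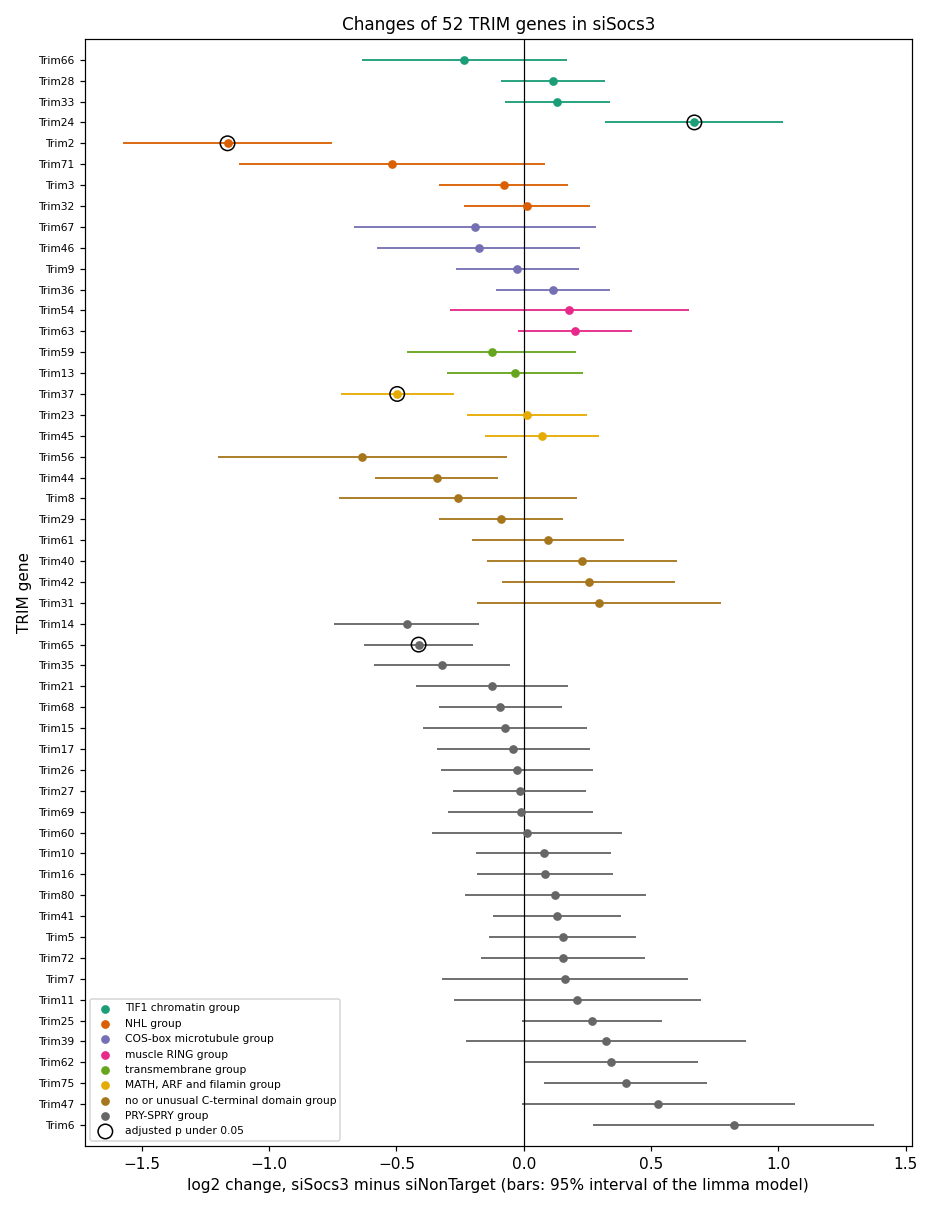
Points give the log2 change in siSocs3 against siNonTarget (horizontal axis) of the 52 TRIM genes (vertical axis, coloured by architecture), bars the 95% interval of the limma model and rings an adjusted p under 0.05. The 4 ringed genes are Trim24 on the right and Trim2, Trim37 and Trim65 on the left, and the PRY-SPRY genes run from −0.46 for Trim14 to 0.82 for Trim6.

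The largest architecture in the family is the PRY-SPRY domain, a protein-binding fold shared by many antiviral members, with 25 genes here. Among them Trim65, a ligase of the RNA sensor MDA5, was called in siSocs3. It read 4.72 and 4.67 on the controls and 4.33 and 4.23 in siSocs3 and fell by 0.41 ± 0.10 (limma adjusted p = 0.0311). The siSox17 arrays were also below both controls, at 4.39 and 4.30, −0.35 ± 0.10 and not called (limma adjusted p = 0.155), while siFbxw7 read 4.64 and 4.60 and siRnf31 4.60 and 4.50. siSocs3 and siSox17 differed by −0.06 ± 0.10 in the direct contrast (limma adjusted p = 0.79). Trim65 has 1 probe set, whose mean lies among the dimmest 30% of genes, where values are close to background. The adjusted p was 0.131 and 0.0733 without siNonTarget replicates 1 and 2, 0.151 and 0.142 without siSocs3 replicates 1 and 2, 0.0518 without either siSox17 array, 0.0794 with the 2 groups alone and 0.118 without both arrays of high actin difference, with changes of −0.46 to −0.37.

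Trim6, a ligase reported to bind Myc in mouse embryonic stem cells, gave the largest positive estimate, 0.82 ± 0.24 in siSocs3, and was not called (limma adjusted p = 0.0681). It read 9.57 and 9.59 on the controls, 10.50 and 10.30 in siSocs3 and 10.25 and 10.33 in siSox17, so the last 2 groups stood clear of the controls. The siFbxw7 arrays read 9.56 and 10.18 and the siRnf31 arrays 10.20 and 9.49. In each of those 2 groups 1 array was at the level of the controls and the other above both. siSox17 gave 0.71 ± 0.24 (limma adjusted p = 0.192), and the direct contrast of siSocs3 with siSox17 0.11 ± 0.24 (0.873). The second probe set of Trim6 gave 0.22 ± 0.27 in siSocs3, and averaging both gave 0.52.

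Trim47 and Trim7 also read higher away from the controls without a call. Trim47, a ligase studied in cancer and brain vessels, read 5.94 and 6.02 on the controls, 7.01 and 6.57 in siSox17, 6.03 and 6.44 in siFbxw7, 6.57 and 6.45 in siSocs3 and 6.89 and 6.20 in siRnf31. Every array of the 4 siRNA groups was above both controls, the nearest being the siFbxw7 array at 6.03 against a control at 6.02. The differences were 0.81 ± 0.24 in siSox17 (limma adjusted p = 0.163), 0.56 ± 0.24 in siRnf31 (0.778), 0.53 ± 0.24 in siSocs3 (0.195) and 0.25 ± 0.24 in siFbxw7 (0.848). Trim7, a ligase that binds glycogenin, read 4.05 and 3.83 on the controls and 4.81 and 4.48 in siSox17, a difference of 0.70 ± 0.21 (limma adjusted p = 0.166). It was 4.28 and 4.47 in siFbxw7, 4.03 and 4.17 in siSocs3 and 4.81 and 4.12 in siRnf31, and its mean is among the dimmest 30% of genes. Trim11, known for its action on humanin, read 8.09 and 8.37 on the controls, 8.86 and 8.64 in siSox17, 8.13 and 8.77 in siFbxw7, 8.47 and 8.42 in siSocs3 and 8.79 and 8.40 in siRnf31, with 0.52 ± 0.21 in siSox17 and 0.36 ± 0.21 in siRnf31. Because all of these differences use the same 2 control arrays, the control values enter each of them.

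Trim14, a mitochondrial adaptor of MAVS signalling without a RING, was not called. It read 5.43 and 5.19 on the controls and 4.73 and 4.97 in siSocs3, a difference of −0.46 ± 0.13 (limma adjusted p = 0.0537). Its other, dimmer probe set had the opposite sign, 0.14 ± 0.11, and averaging both gave −0.16. siSox17 read 5.01 and 5.02, siRnf31 4.95 and 4.96 and siFbxw7 5.30 and 5.10, and the first 2 lay below both controls (−0.30 ± 0.13 and −0.35 ± 0.13). Trim56, a ligase of antiviral signalling, read 8.21 and 7.78 on the controls, 7.58 and 7.34 in siSox17, 7.82 and 6.98 in siFbxw7, 7.40 and 7.32 in siSocs3 and 7.76 and 7.93 in siRnf31. Its differences were −0.63 ± 0.25 in siSocs3 (limma adjusted p = 0.148), −0.60 ± 0.25 in siFbxw7 (0.752) and −0.53 ± 0.25 in siSox17 (0.317). The siFbxw7 replicates of Trim56 were 0.84 apart, the widest replicate gap of any TRIM gene on these arrays.

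Trim25, which ubiquitinates the RNA sensor RIG-I, read 10.37 and 10.10 on the controls, 10.44 and 10.43 in siSox17, 10.50 and 10.41 in siFbxw7, 10.59 and 10.41 in siSocs3 and 10.36 and 10.22 in siRnf31. Its 3 probe sets all lay above 0 in siSocs3, at 0.27 ± 0.12, 0.34 ± 0.13 and 0.81 ± 0.21, the last with an adjusted p of 0.0533 when every probe set was tested by limma. Averaged, they gave 0.47 and passed (limma adjusted p = 0.0427), unlike the brightest alone (0.199). Trim21, the cytosolic antibody receptor, read 7.71 and 7.51 on the controls, 7.48 and 7.31 in siSox17, 7.63 and 7.34 in siFbxw7, 7.56 and 7.41 in siSocs3 and 7.52 and 7.54 in siRnf31. Its probe sets gave −0.12 ± 0.13 and 0.19 ± 0.12 in siSocs3, with no common sign. Trim27, a nuclear and endosomal ligase, read 11.63 and 11.62 on the controls, 11.33 and 11.44 in siSox17, 11.67 and 11.52 in siFbxw7, 11.60 and 11.62 in siSocs3 and 11.44 and 11.72 in siRnf31. Its difference in siSocs3 was −0.02 ± 0.12, with a 95% interval of −0.28 to 0.25.

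Trim75, a rodent PRY-SPRY gene, read 3.62 and 3.26 on the controls, 3.81 and 3.87 in siSocs3 and 3.73 and 3.81 in siFbxw7, with differences of 0.40 ± 0.14 and 0.33 ± 0.14, neither called (limma adjusted p = 0.111 and 0.752). It is among the dimmest 30% of genes, and siSox17 read 3.74 and 3.69 and siRnf31 3.69 and 3.40. Of the 25 PRY-SPRY genes, 0 rose and 1 fell by the test in siSocs3 (4% called, against 9.26% of all genes). Estimates were above 0 for 15 of the 25, with a median of 0.08. Of all 18194 genes, 9820 had estimates above 0, with a median of 0.03. Their other members not named here lay between −0.32 (Trim35) and 0.34 (Trim62) in siSocs3.

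Outside these groups, Trim44, a RING-less member with a zinc finger of the kind found in deubiquitinases, split by probe set. Its brightest read 10.42 and 10.38 on the controls and 10.05 and 10.07 in siSocs3, −0.34 ± 0.11 and not called (limma adjusted p = 0.0788). The other 2 probe sets of Trim44 were above 0 in siSocs3, at 0.31 ± 0.15 and 0.41 ± 0.17. In the remaining groups the brightest read 10.30 and 10.41 (siSox17), 10.35 and 10.44 (siFbxw7) and 10.16 and 10.39 (siRnf31). Trim8, a ligase reported to interact with SOCS1 and PIAS3 in JAK-STAT signalling, read 8.08 and 7.73 on the controls, 7.91 and 7.98 in siSox17, 8.09 and 7.72 in siFbxw7, 7.55 and 7.74 in siSocs3 and 7.81 and 7.24 in siRnf31. Its groups overlapped in all 4 comparisons, with estimates of −0.26 ± 0.21 in siSocs3 and −0.38 ± 0.21 in siRnf31. None of the 8 members without a common C-terminal domain, among them Trim44, Trim56 and Trim8, was called in siSocs3. Of these 8, 2 had an unadjusted limma p under 0.05, where 26.2% of all genes did.

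**Figure D4:**
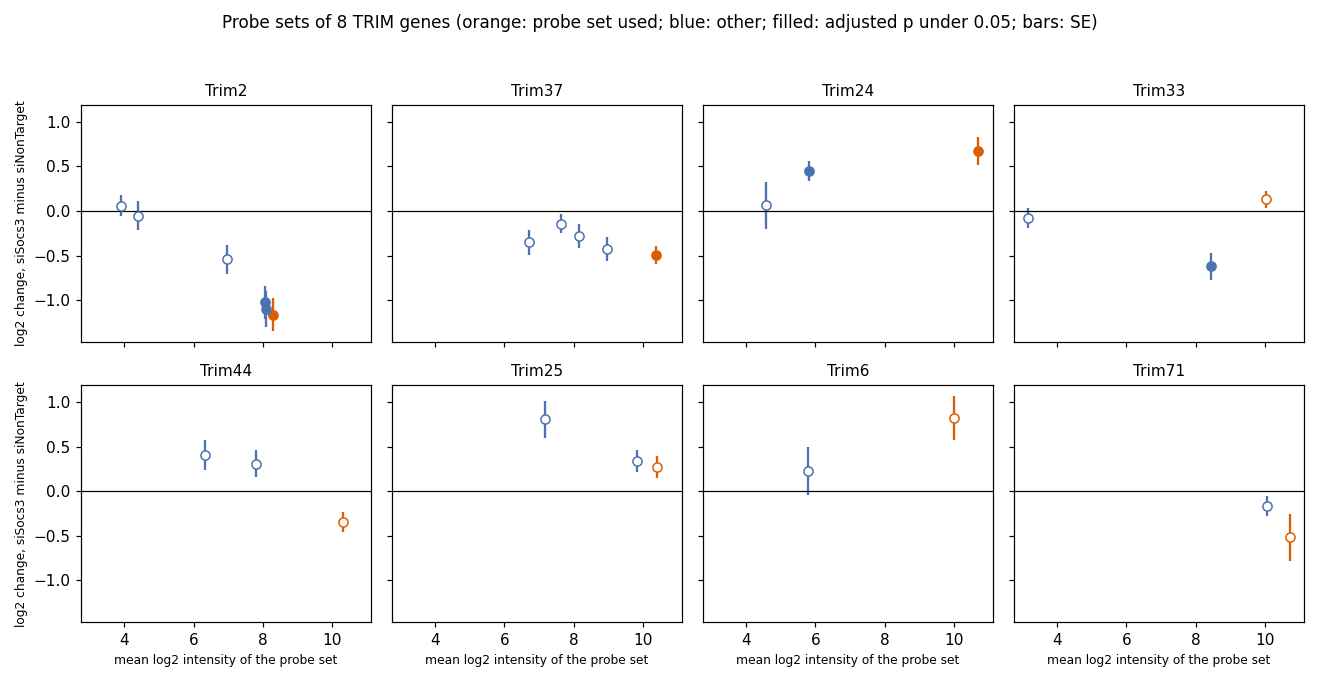
Each panel plots the log2 change in siSocs3 against siNonTarget (vertical axis, bars SE) of every probe set of a TRIM gene against the probe set's mean log2 intensity (horizontal axis); orange is the probe set used, blue the others, and filled points have a limma adjusted p under 0.05 over all probe sets. The brighter Trim2 probe sets are the lower ones, and Trim33 and Trim44 have probe sets on both sides of 0.

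The COS-box members bind microtubules, and Trim9, Trim46 and Trim67 are known from axons and dendrites. None was called in any comparison with the control. Trim67 read 4.42 and 4.91 on the controls, 3.97 and 4.44 in siSox17, 4.64 and 4.43 in siFbxw7, 4.53 and 4.41 in siSocs3 and 4.09 and 4.45 in siRnf31, and overlapped the controls in each. Trim46 read 5.83 and 6.05 on the controls, 5.85 and 5.72 in siSox17, 6.20 and 5.81 in siFbxw7, 5.75 and 5.78 in siSocs3 and 5.70 and 6.16 in siRnf31. Trim9 was 3.85 and 3.98 on the controls, 3.80 and 3.93 in siSox17, 3.99 and 4.04 in siFbxw7, 3.98 and 3.80 in siSocs3 and 3.85 and 3.86 in siRnf31. Trim36 stood at 5.20 and 5.22 on the controls, 5.30 and 5.31 in siSox17, 5.28 and 5.09 in siFbxw7, 5.37 and 5.29 in siSocs3 and 5.24 and 5.27 in siRnf31. Their changes in siSocs3 were −0.19 ± 0.21, −0.18 ± 0.18, −0.02 ± 0.11 and 0.11 ± 0.10 in that order. Trim9, Trim67, Trim14 and Trim66 are among the 17 TRIM genes whose mean is in the dimmest 30% of genes, where changes are compressed. The 2 muscle RING members measured, Trim54 and Trim63, differed by 0.18 ± 0.21 and 0.20 ± 0.10 in siSocs3.

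Genes around the family were read from lists beside the members. Where arrays were left out for these lists, the count over all genes moved as well, and no share of all genes stands beside those list counts. Of 15 measured TRIM-related genes with other symbols, 1 was called in siSocs3 (6.67%, against 9.26% of all genes): Trim43a, a gene of the early embryo with near-identical copies that the probe set may also read. Trim43a read 10.20 and 9.57 in siSocs3 against 6.05 and 6.91 on the controls, 7.29 and 6.65 in siSox17, 6.46 and 6.72 in siFbxw7 and 7.01 and 7.32 in siRnf31. It rose by 3.40 ± 0.32 (limma adjusted p = 0.00225), and against the control it stayed called when any single array was left out. It also passed in the 3 direct contrasts (2.91, 3.29 and 2.71), for which arrays were not left out. No member of the rule moved as far, Trim2 having the largest change in size at −1.16. Pml, the nuclear body gene, was 0.52 ± 0.21 and not called.

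Of 18 genes listed as partners of Trim28, 2 rose and 2 fell in siSocs3 (22.2% called, against 9.26% of all genes), with a median of −0.07 against 0.03. Zfp809, a KRAB zinc finger gene that brings Trim28 to proviral DNA, rose by 0.70 ± 0.10 (limma adjusted p = 0.00831), from 10.13 and 10.15 on the controls to 10.90 and 10.79. Dppa3, a maternal factor that guards DNA methylation rather than a corepressor, rose by 1.05 ± 0.25 (0.033). The remodeller gene Chd3 (−0.59 ± 0.14, 0.032) and Cbx5, which encodes HP1 alpha (−0.43 ± 0.11, 0.0471), fell. Without siNonTarget replicate 1, either siSox17 array, siSocs3 replicate 2 or both arrays of high actin difference, Zfp809 was the 1 gene of this list called, and without siSocs3 replicate 1 there were 0. More genes than Zfp809 were called without siNonTarget replicate 2, either siRnf31 array or either siFbxw7 array. The count over all genes moved in these runs too.

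Among 14 measured genes of the let-7 axis around Trim71, 0 rose and 3 fell in siSocs3 (21.4% called, against 9.26% of all genes, 5.66% lower), with a median of −0.34 against 0.03. Igf2bp3, an RNA-binding protein gene, read 10.92 and 10.38 on the controls and 9.28 and 9.65 in siSocs3 (−1.19 ± 0.23, limma adjusted p = 0.0189). Tut4, a uridylyltransferase that acts on pre-let-7, was −0.64 ± 0.13 (0.0208), and Igf2bp1 −0.40 ± 0.11 (0.0477). Lin28a, the let-7 inhibitor, was −0.46 ± 0.15 and not called (0.0902). The count was 0 without siNonTarget replicate 1 or siSocs3 replicate 1 and 1 without siSocs3 replicate 2 or both arrays of high actin difference. It was 2 without siNonTarget replicate 2 or either siSox17 array, 3 without either siRnf31 array (Hmga2 in place of Igf2bp1) and 4 without either siFbxw7 array. Igf2bp1 stayed called only without a siFbxw7 array.

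Of 24 measured interferon-stimulated genes, 2 rose and 0 fell in siSocs3, 8.33% called and close to the 9.26% of all genes, with a median of 0.00 against 0.03. Oas1a, an RNA-activated synthetase, read 7.37 and 7.29 on the controls and 8.41 and 8.25 in siSocs3, a rise of 0.997 ± 0.12 (limma adjusted p = 0.00433). Rsad2, which encodes viperin, rose by 0.51 ± 0.12 (0.0323). The count was 1, Oas1a, without either siNonTarget array, either siSox17 array, siSocs3 replicate 2 or both arrays of high actin difference, and 0 without siSocs3 replicate 1. In siSox17, siFbxw7 and siRnf31 no gene of these 4 lists was called.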

How the data were processed

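Expression was measured on 10 one-colour Affymetrix arrays, 2 for each of 5 siRNA groups assigned from the sample titles. RNA (5 ng) was amplified, labelled and hybridised, per the labels' protocols. The deposited values are intensities on a linear scale, made by the authors with RMA, per the submitters' processing notes; its version is not given in the sources used here. As usually run, RMA forces the arrays to one distribution, which hides a shift common to most transcripts, and it compresses changes near background.

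From these values log2 was taken. Of 45101 probe sets, 34958 carry 1 gene symbol, 932 several (left out) and 9211 none. Taking the brightest probe set per symbol gave 18194 genes, with no filter on dim genes. All 52 TRIM symbols matched the RefSeq table of GRCm38.p6, used for names and promoter windows. One model over 5 groups was fitted with limma 3.58.1 in R 4.3.3 (lmFit, eBayes, 5 residual and 3.98 prior degrees of freedom), two-sided, with Benjamini-Hochberg adjustment over all genes within each of 7 contrasts. The fit was tested on simulated data. No exact permutation test of 2 arrays against 2 can reach 0.05. Figures used matplotlib 3.10.9.

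The members, gene lists and tests were chosen with earlier results of these data known. Named were called members, the 3 rises and 3 falls of smallest p per contrast with siNonTarget, a set of members by role, and up to 4 called genes per list; the members with motif matches and Trim45, Trim54, Trim63, Trim35, Trim62, Trim26, Pml and Lin28a were named beyond this after their values were seen. Alternatives were a replicate block, the 2 groups alone, quantile normalization, median centring, filters on dim genes, a prior fitted with trend and robustness, averaged probe sets, other single probe sets, and leaving out arrays. Same-numbered arrays were checked for pairing: deviations from group means correlated between −0.26 and 0.421 over the 10 group pairs, with no common sign. The 0.421 was siNonTarget with siFbxw7, whose replicate 1 arrays are those of high actin difference. No pairing by number was thus seen across all groups, but the check cannot tell whether some arrays shared a culture or batch.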

Additional observations from a re-analysis of the deposited data

How the results depend on the processing

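With 2 arrays per group, single arrays set many of the calls. For siSocs3 against siNonTarget the count of TRIM genes called, 4, became 1 once the pair of arrays with a high actin difference (siNonTarget replicate 1 and siFbxw7 replicate 1) was left out, and lay between 0 and 7 when 1 array was left out. The count over all genes, 1684, moved with it, from 63 to 2074. For siSox17 against siNonTarget the count of 0 became 1 with the 2 groups alone (Trim6, limma adjusted p = 0.0487), and for siFbxw7 and siRnf31 against siNonTarget it was 0 in every alternative run. For siSocs3 against siSox17 the count of 1 became 0 with quantile normalization and with probe sets averaged per gene, and 0 to 1 with 1 array left out. For siSocs3 against siFbxw7 it became 3 without the dimmest 50% of genes and 2 with a trended and robust prior, and 0 to 2 with 1 array left out. For siSocs3 against siRnf31 the count of 0 became 2 with that prior, and 0 to 1 with 1 array left out. A group left with a lone array is assumed to vary like the others. The cause of these shifts was not tested.

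Trim2 changed sign on its dimmest probe sets. The dimmest gave 0.058 against siNonTarget, 0.011 against siSox17 and 0.063 against siFbxw7, and the next 0.10 against siSox17 and 0.019 against siFbxw7. Trim2 kept its call against siNonTarget in 18 of 24 alternatives, Trim24 in 12 of 21, Trim37 in 13 of 23 and Trim65 in 9 of 17. These tallies include leave-outs of siSox17, siFbxw7 and siRnf31 arrays, which alter the estimated spread and cannot move the change itself. Where a single array of siSocs3 or siNonTarget was left out, Trim2 kept its call only without siNonTarget replicate 2. Trim2 also kept its call without both arrays of high actin difference. Trim24, Trim37 and Trim65 did not keep theirs in any of these. Averaging probe sets ended the calls of Trim24 and Trim37 and made one for Trim25. The filters on dim genes leave Trim65 out, so they gave no value for it.

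With the replicate number as a block, the count for siSocs3 against siNonTarget stayed at 4 and that for siSocs3 against siSox17 fell to 0 (Trim2, limma adjusted p = 0.0555), while 409 of all genes were called there against 474. No pairing by array number was seen across all groups. Leaving out arrays for the 4 other gene lists and for single probe sets was chosen after seeing the data. Probes near background limit what can be seen for the 17 dim TRIM genes.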
